A study of Mus musculus with 9 samples.

Results

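The mitochondrial respiratory chain and ATP synthase are built from subunits encoded in 2 genomes, and both sets were followed here in mouse skin. All protein-coding genes of the deposited FPKM table (fragments scaled by gene length and sequencing depth) were taken whose symbols begin with mt-Nd, mt-Co, mt-Cytb, mt-Atp, Nduf, Sdh, Uqcr, Atp5, or Cox followed by a digit from 4 to 8. The rule found 111 genes of the 54532 in the table, 22046 of which are protein coding. Of these, 13 are encoded by the mitochondrial genome, 84 are nuclear genes of subunits and 14 are nuclear genes of assembly factors or associated proteins whose symbols share those prefixes (8 Ndufaf and 4 Sdhaf genes, Cox7a2l and Atp5s). By complex, there are 7 mitochondrial and 36 nuclear subunit genes for complex I, 4 nuclear ones for complex II, 1 and 8 for complex III, 3 and 19 for complex IV, and 2 and 17 for complex V. Ndufa4 and Ndufa4l2 carry a complex I name and were counted with complex IV, where the Ndufa4 protein is now placed.

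The study sequenced RNA from whole skin biopsies of mice labelled WT in all 3 groups, with 3 libraries in each. The groups were healthy control mice, mice given bleomycin, an agent that scars skin and serves as a model of scleroderma, and mice given bleomycin together with topical nitrate. Doses, times, strain, sex and the number of animals are not given in the sources used here, and nothing says that the 3 libraries of a group came from separate animals, so a p-value below measures only the spread between these libraries. The groups are called control, bleomycin and nitrate, and a number after a name (control 2) is the library's number in its label. The libraries held 15804050 to 18352592 counted reads. Their makeup also varied: 20 skeletal muscle genes summed to 16405 to 24331 FPKM in control, 3456 to 14996 in bleomycin and 2725 to 12029.5 in nitrate, and 20 genes of the growing hair follicle from 7.13 in control 1 to 15539 in nitrate 3. The 14 keratinocyte genes that mark skin summed to 2822 to 10395 FPKM over the 9 libraries.

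Complexes I to IV pass electrons from NADH and succinate to oxygen, complexes I, III and IV pump protons across the inner mitochondrial membrane, and complex V, ATP synthase, lets the protons back to make ATP. Mitochondrial DNA carries core subunits of every complex except complex II, transcribed as long precursors from both strands and cut into single mRNAs, tRNAs and rRNAs. All other subunits are transcribed in the nucleus, translated in the cytosol and imported, and some exist as tissue isoforms, of which the heart and skeletal muscle forms of complex IV subunits are the best known.

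Reads of some mitochondrial genes also match a copy of mitochondrial DNA in chromosome 1, which decides how far single genes below can be read. GENCODE M21 (GRCm38, the same assembly as mm10) annotates 7 unprocessed pseudogenes on the minus strand of chromosome 1 between bases 24611535 and 24616197, each matching a stretch of one mitochondrial gene. The copies of mt-Co2 (681 of 681 aligned bases identical), mt-Atp6 (678 of 678), mt-Co3 (783 of 783) and mt-Nd4l (294 of 294) had no difference over nearly the whole gene, and that of mt-Nd3 had 1 difference in 345. A copy of mt-Nd4 covers 876 bases, 63.6% of the gene, without a difference, and one of mt-Co1 covers the last 492 bases, 31.8% of the gene, with 6. The stretches below are shown because they are what a read would have to tell apart. They are gene sense, 5′ to 3′, and capitals mark bases that differ between gene and copy. The first pair opens mt-Co2 (mitochondrial genome, bases 7013 to 7132, plus strand) and Gm28661 (chr1:24615446-24615565, minus strand), which are identical over these 120 bases.
mt-Co2: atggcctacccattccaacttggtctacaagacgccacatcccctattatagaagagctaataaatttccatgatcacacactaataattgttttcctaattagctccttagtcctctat
Gm28661: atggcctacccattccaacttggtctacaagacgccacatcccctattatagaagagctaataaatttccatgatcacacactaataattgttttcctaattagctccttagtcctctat
The second pair opens mt-Nd3 (bases 9459 to 9518, plus strand) and Gm28438 (chr1:24613060-24613119, minus strand), with the gene's only difference, T3C, counted from 1 at the 5′ end and giving the mitochondrial base first.
mt-Nd3: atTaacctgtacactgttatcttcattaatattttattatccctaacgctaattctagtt
Gm28438: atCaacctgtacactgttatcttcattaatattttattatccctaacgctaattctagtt
The third pair is the edge of the copied region inside mt-Co1 (bases 6381 to 6460, plus strand) and Gm29216 (chr1:24616118-24616197, minus strand), where all 6 differences (T3A, C4T, A6G, A7G, C9A and A13T, counted from the first base shown) lie in the first bases and the rest is identical.
mt-Co1: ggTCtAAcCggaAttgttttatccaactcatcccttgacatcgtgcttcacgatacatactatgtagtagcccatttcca
Gm29216: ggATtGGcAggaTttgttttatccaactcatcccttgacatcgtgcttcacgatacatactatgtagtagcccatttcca

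The 6 genes inside the region that chromosome 1 repeats in full (mt-Co2, mt-Atp8, mt-Atp6, mt-Co3, mt-Nd3 and mt-Nd4l, where mt-Atp8 lies between copied genes and has no annotated copy of its own) ranged from 1.80 to 491 FPKM over all libraries. The other 7 ranged from 1506 to 19187, although the mitochondrial strands are transcribed as long precursors. How reads that match 2 places were counted is not given in the sources used here, and its part in this gap was not tested. Levels are therefore compared between groups for each gene, not between these 2 sets of genes.

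**Figure D1:**
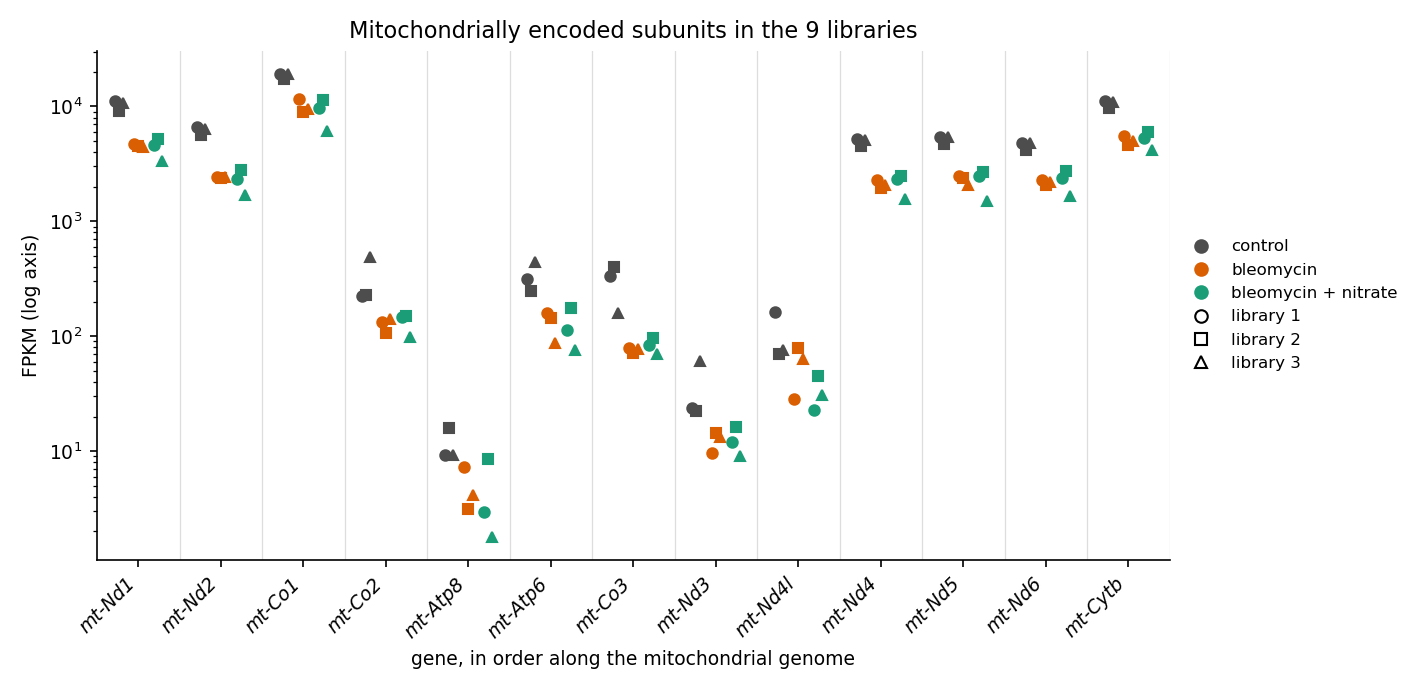
FPKM of the 13 mitochondrially encoded genes on a log axis, in gene order, with 1 point per library (color gives the group, shape the library number). In 12 of the 13 genes every bleomycin point lies below every control point, and the 6 genes from mt-Co2 to mt-Nd4l lie far below the other 7.

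The transcripts encoded by mitochondrial DNA were lower in bleomycin skin than in control skin, while those of the nuclear subunits of the same complexes overlapped between the groups for most genes. By limma's test on log2(FPKM + 1), with Benjamini-Hochberg adjustment over all 14645 genes tested and a threshold of 0.05, 7 of the 13 mitochondrial genes fell in bleomycin against control and none rose, against 3.69% of all tested genes called lower and 4.74% called higher. All 13 estimates were below 0, with a median of -1.18 on the log2 scale beside 0.01 for all genes. In 12 of the 13 the libraries of the groups did not overlap, with bleomycin lower, as was so for 17.3% of all tested genes. Of the 81 tested nuclear subunits 0 were called (7 had an unadjusted p under 0.05, and voom on the recovered reads called 0 as well), and their median difference was -0.11. Quantile normalization, which gives the top-ranked genes of every library nearly the same values by construction, called 2 mitochondrial genes, mt-Co3 and mt-Co2, of which 1 is among the 7, with a median of -0.55 and an estimate of 0.11 for mt-Co1. In whole tissue, fewer cells of a type and less RNA per cell cannot be told apart.

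**Figure D2:**
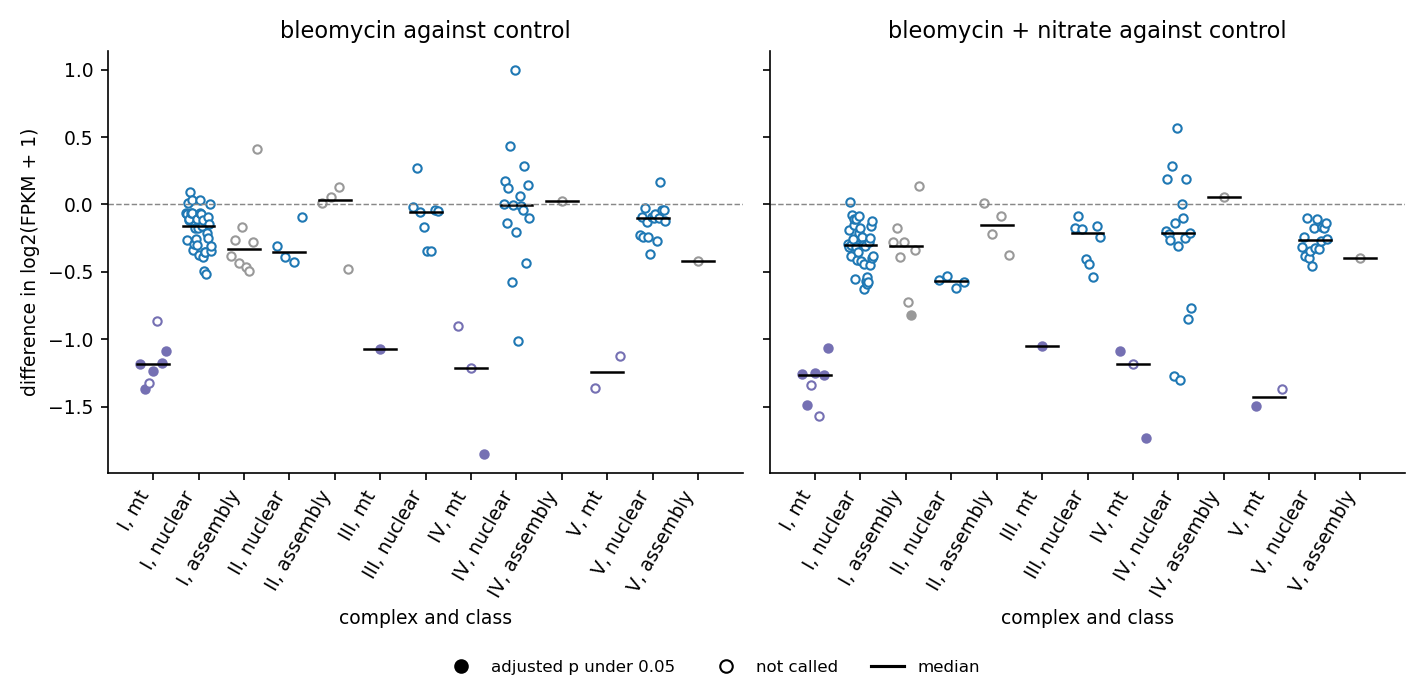
Difference in log2(FPKM + 1) from control for each tested member, by complex and class, in bleomycin (left) and nitrate (right); filled points have an adjusted p under 0.05 and bars are medians. The mitochondrial medians (mt) lie between -1.07 and -1.24 in bleomycin, and nuclear medians between -0.35 and -0.0014.

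Complex I oxidises NADH, and its 7 mitochondrial subunits form the proton-pumping arm in the membrane. mt-Nd2 had 6662, 5691 and 6352 FPKM in the control libraries, 2451, 2363 and 2407 in bleomycin and 2332, 2778 and 1687 in nitrate. All 3 control libraries lay above all 6 others, a fall of 2.59-fold between the means of control and bleomycin (-1.37 ± 0.20, adjusted p = 0.00866, log2 difference ± SE). mt-Nd1 had 11254, 9161 and 10646 FPKM in control, 4692, 4536 and 4411 in bleomycin and 4654, 5194 and 3324 in nitrate, and mt-Nd4 had 5239, 4529.8 and 5125 in control, 2289.6, 1966 and 2059 in bleomycin and 2345, 2501 and 1553 in nitrate. Both fell in bleomycin against control (-1.18 ± 0.20, adjusted p = 0.0126 for mt-Nd1 and -1.24 ± 0.20, adjusted p = 0.0120 for mt-Nd4), again with no overlap. For mt-Nd5 the control libraries had 5420.3, 4752 and 5423 FPKM and the bleomycin libraries 2464, 2376 and 2077 (-1.17 ± 0.23, adjusted p = 0.0211). mt-Nd6, the only member encoded on the other strand, had 4839.6, 4195 and 4837 FPKM in control and 2277, 2055 and 2179 in bleomycin (-1.09 ± 0.20, adjusted p = 0.0168), a level close to that of mt-Nd5. The 2 genes share 14 bases at their ends, and since the strand setting of the counting is not given, reads from mt-Nd6 and from RNA antisense to it cannot be told apart. The calls of these last 2 genes were the least firm: that of mt-Nd5 ended whichever of the 6 libraries was left out (adjusted p 0.0548 to 0.0689). That of mt-Nd6 ended without control 1, 2 or 3 or bleomycin 1 or 2 (up to 0.0558). mt-Nd1, mt-Nd2, mt-Nd4, mt-Cytb and mt-Co3 kept their calls without any one library. Their adjusted p then reached 0.0470, 0.0335, 0.0445, 0.0495 and 0.0463, so most came close to the threshold.

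The 2 remaining complex I genes lie in the region repeated in full on chromosome 1, where 63.6% of mt-Nd4 is copied as well. mt-Nd3 had 23.7, 22.6 and 61.2 FPKM in control and 9.69, 14.3 and 13.2 in bleomycin, where control 3 stood above the other controls and the groups did not overlap (-1.32 ± 0.37, adjusted p = 0.0660). mt-Nd4l had 163, 70.1 and 76.1 in control and 28.5, 78.3 and 63.0 in bleomycin. It was the 1 mitochondrial gene whose groups overlapped (-0.86 ± 0.45, adjusted p = 0.260).

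Cytochrome b, the one mitochondrial subunit of complex III and the site where ubiquinol is oxidised, followed the same order. mt-Cytb had 11216, 9766 and 10817 FPKM in control, 5549, 4607 and 4962 in bleomycin and 5321, 6029 and 4169 in nitrate. The highest of the 6 treated libraries, nitrate 2, was well under the lowest control, and the fall in bleomycin was 2.10-fold (-1.07 ± 0.18, adjusted p = 0.0138).

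In complex IV, cytochrome c oxidase, the 3 mitochondrial subunits form the catalytic core. mt-Co1, the subunit that binds oxygen and the member with the highest listed FPKM, had 19187, 17376 and 19032 FPKM in control, 11654, 8884 and 9418 in bleomycin and 9620.4, 11298 and 6125 in nitrate. The groups did not overlap, but the difference between bleomycin and control missed the threshold (-0.90 ± 0.25, adjusted p = 0.0588). mt-Co3 had 334, 399.8 and 159 in control and 79.4, 71.5 and 78 in bleomycin. It fell 3.90-fold (-1.85 ± 0.31, adjusted p = 0.0127), with control 3 the lowest control. mt-Co2, which takes electrons from cytochrome c, had 225, 227 and 491 in control and 132, 107 and 141 in bleomycin. It lay just outside the threshold (-1.21 ± 0.32, adjusted p = 0.0523), where control 3 was instead the highest.

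The 2 mitochondrial subunits of ATP synthase belong to its membrane part and were both lower without passing the test. mt-Atp6 had 314, 249 and 443 FPKM in control and 160.2, 144 and 87.8 in bleomycin (-1.36 ± 0.36, adjusted p = 0.0548). mt-Atp8, with the lowest FPKM among the genes of the copied region, had 9.30, 16.0 and 9.30 in control and 7.22, 3.11 and 4.17 in bleomycin (-1.12 ± 0.45, adjusted p = 0.158). Its values rest on 29, 55 and 33 reads in control and 24, 11 and 15 in bleomycin. For both genes the lowest control lay above the highest bleomycin library. They share 43 bases of sequence, so reads from that stretch belong to both.

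Adding mt-Co2 and mt-Atp6 to their chromosome 1 copies lowered the SE of their log2 differences, from 0.32 to 0.24 and from 0.36 to 0.28. The spread of FPKM among controls stayed about as wide. Its SD was 153 alone and 156 summed for mt-Co2, and 99.0 and 98.4 for mt-Atp6. The ratio of mt-Co2 to Gm28661 was 2.23 in control 3 and 0.941 to 1.26 in the other 8 libraries, and the ratio of mt-Atp6 to Gm10925 was 2.05 in control 3 and 0.958 to 1.42 elsewhere. The copies themselves were lower in treated skin: Gm28661 had 238, 198 and 220.4 FPKM in control, 140.0, 104 and 112 in bleomycin and 125, 128 and 93.3 in nitrate. As sums of gene and copy, mt-Co2 fell by 1.09 ± 0.24 on the log2 scale (adjusted p = 0.0294) and mt-Atp6 by 1.26 ± 0.28 (adjusted p = 0.0307) in bleomycin against control, which raised the mitochondrial calls from 7 to 9. This summing was chosen after the data were seen.

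**Figure D3:**
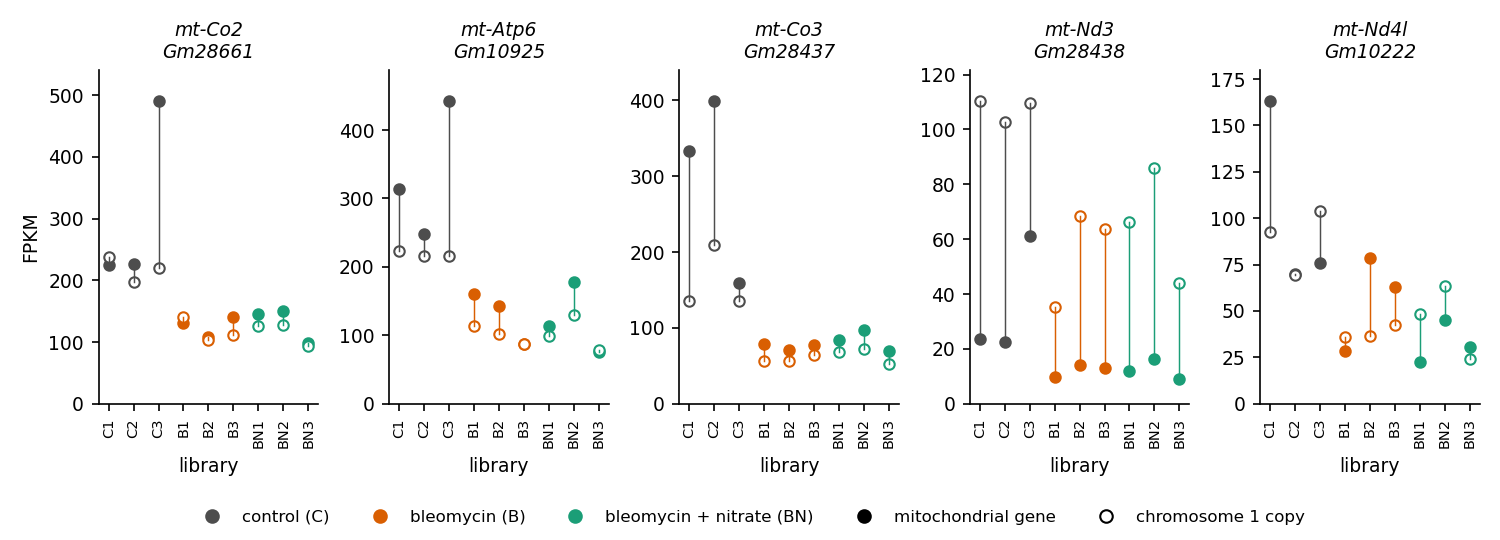
FPKM of 5 mitochondrial genes (filled) and of their chromosome 1 copies (open) in the 9 libraries, joined by a line per library. Control 3 shows the widest gap for mt-Co2 (491 against 220.4), and for that pair gene and copy are both lower in every treated library than in any control.

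Summed over the 13 genes, mitochondrial transcripts made up 7.78, 6.45 and 7.61% of counted reads in control, 4.03, 3.64 and 3.59% in bleomycin and 3.92, 4.34 and 2.74% in nitrate. Their summed FPKM was 64888, 56455 and 63472 in control, 31794, 27205 and 27899.7 in bleomycin and 29533, 33701 and 20319 in nitrate. Every treated library lay below every control. The 84 nuclear subunits summed to 5345, 6076 and 5275 FPKM in control, 5686, 4289 and 5648 in bleomycin and 3763, 5471 and 4648 in nitrate, and here the groups overlapped. The ratio of the mitochondrial to the nuclear sum was 12.1, 9.29 and 12 in control, 5.59, 6.34 and 4.94 in bleomycin and 7.85, 6.16 and 4.37 in nitrate, so no treated library reached the lowest control. As group means, the ratio went from 11.2 ± 1.62 (SD, n = 3) in control to 5.62 ± 0.702 in bleomycin and 6.13 ± 1.74 in nitrate (SD, n = 3 each). It was lower in bleomycin in each complex that has both kinds of subunit: 2.03-fold in complex I, 1.98-fold in complex III, 1.92-fold in complex IV and 2.35-fold in complex V between the means of control and bleomycin. The complex V sum holds only mt-Atp6 and mt-Atp8, both in the region copied on chromosome 1. In complex IV, mt-Co1 made up most of the mitochondrial sum (18532 of 19144 FPKM in control). None of these genes was called in bleomycin against control.

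**Figure D4:**
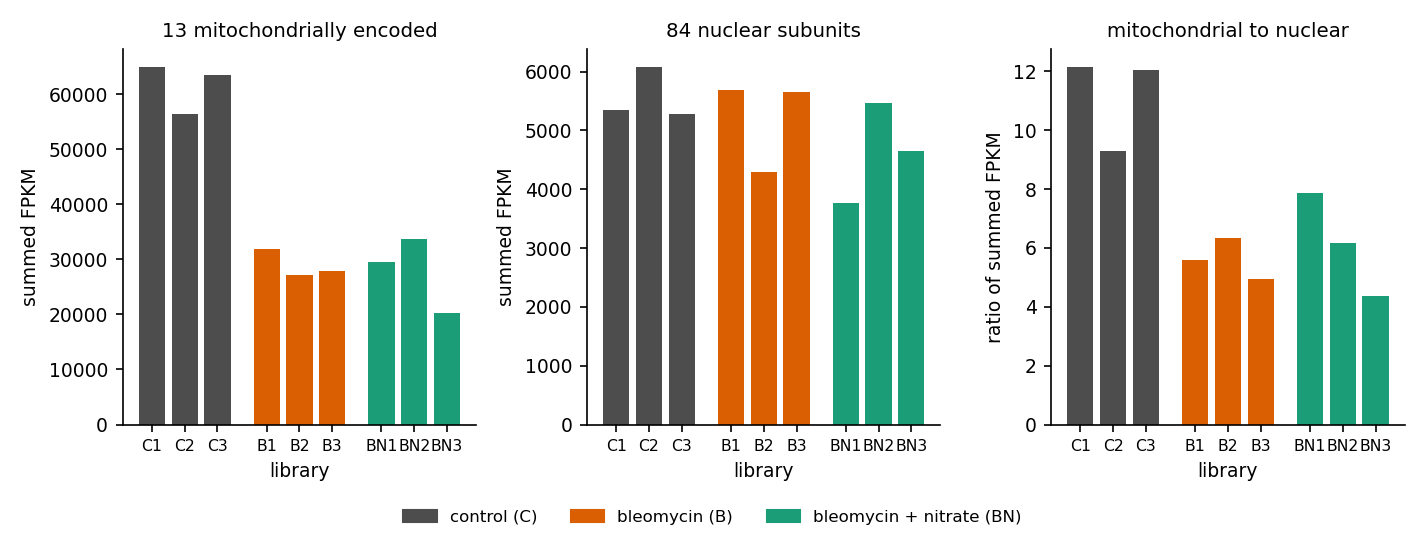
Summed FPKM of the 13 mitochondrially encoded genes, of the 84 nuclear subunits, and the ratio of the sums, with 1 bar per library. The mitochondrial sums are 20319 to 33701 in treated skin and 56455 to 64888 in control, whereas the nuclear sums overlap.

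Skeletal muscle, a tissue rich in mitochondria, was unevenly present in the biopsies, and its markers are given here beside the mitochondrial result. The 20 muscle genes summed to 18291, 24331 and 16405 FPKM in control, 14996, 3456 and 8107 in bleomycin and 3603, 12029.5 and 2725 in nitrate, and none was at 0 in all libraries. Leaving out the 3 libraries lowest in muscle genes (bleomycin 2, nitrate 1 and nitrate 3) kept 6 mitochondrial calls in bleomycin against control, with a median of -1.18. With the muscle list's mean as a covariate 6 were called and the median was -1.07, and over the nuclear and assembly members the median then moved from -0.12 to 0.05. In nitrate against control that covariate left 0 mitochondrial calls. The share of all tested genes called in these alternative fits is not given here, so the counts have no background beside them. Other lists differed between groups as well: 15 white fat cell genes summed to 2503 to 3555 FPKM in control and 1309 to 1598 in bleomycin, 10 neutrophil genes to 34.3 to 65.6 and 484 to 3246, and no list gene of these was at 0 in all libraries. Called higher and lower in bleomycin against control were 0 and 1 of 15 tested white fat genes, 5 and 1 of 7 neutrophil genes, 1 and 1 of 8 brown fat genes, 4 and 1 of 14 keratinocyte genes, 0 and 2 of 10 sebaceous gland genes, 0 and 4 of 10 dermal fibroblast genes, 2 and 0 of 12 monocyte and macrophage genes, and 0 of 20 hair follicle and 0 of 19 muscle genes by limma or voom (0 and 6 with an unadjusted p under 0.05). Over all tested genes, 4.74% were called higher and 3.69% lower in that comparison. The part of these cell types in the mitochondrial difference was not tested. When control 1 and bleomycin 1 were both dropped (they held the least hair follicle RNA by marker sum), 0 members were called by limma (20 had an unadjusted p under 0.05) and the mitochondrial median was -1.26.

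Among nuclear subunits of complex I, which carry the flavin and iron-sulfur centres and the accessory shell, 31 of 36 estimates were below 0 in bleomycin against control, with a median of -0.16. None was called, and 6 of the 36 had bleomycin libraries all below control, as was so for 17.3% of all tested genes. Ndufs1, the large iron-sulfur subunit, had 15.9, 19.1 and 14.8 FPKM in control, 13.6, 9.26 and 11.8 in bleomycin and 10.8, 12 and 9.68 in nitrate (-0.50 ± 0.16, adjusted p = 0.0917). Ndufs4, an assembly-critical subunit whose loss causes Leigh-like disease in mice, had 25.2, 20.4 and 18.9 in control, 14.2, 12.6 and 17.4 in bleomycin and 10.4, 17.1 and 15.4 in nitrate (-0.52 ± 0.20, adjusted p = 0.143). Ndufb5, an accessory subunit, had 16.4, 20.2 and 16.6 in control and 13.6, 11.9 and 14.8 in bleomycin (-0.37 ± 0.14, adjusted p = 0.126). In all 3 genes the lowest control lay above the highest bleomycin library. The highest estimate belonged to Ndufa3, an accessory subunit (24.1, 30.6 and 26.8 in control and 31.6, 22.4 and 33.9 in bleomycin, 0.09 ± 0.22, adjusted p = 0.818). Ndufv1, which binds the flavin and accepts electrons from NADH, overlapped, with 41.4, 56.1 and 46.1 in control and 58.4, 40.0 and 46.2 in bleomycin. Ndufa2, an accessory subunit, had 125, 131 and 110.1 in control, 117, 90.7 and 135 in bleomycin and 75.9, 124 and 101 in nitrate and overlapped as well.

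Complex II is wholly nuclear and also works in the citric acid cycle. Its 4 subunits had a median difference of -0.35 in bleomycin and -0.57 in nitrate, each against control, and none was called. Sdhc, a membrane anchor, had 42.5, 46.8 and 42.5 FPKM in control, 36.4, 26.5 and 34.9 in bleomycin and 26.0, 34.6 and 25 in nitrate. All treated libraries lay below all controls (-0.43 ± 0.16, adjusted p = 0.139 in bleomycin and -0.62 ± 0.16, adjusted p = 0.0531 in nitrate, the nuclear subunit nearest to the threshold). Sdha, the flavoprotein that oxidises succinate, had 66.6, 99.2 and 70.3 in control, 78.4, 50.9 and 60.5 in bleomycin and 44.8, 76.1 and 41.6 in nitrate, with nitrate 2 and bleomycin 1 inside the control range (-0.56 ± 0.27, adjusted p = 0.190 in nitrate against control). Sdhb, the iron-sulfur subunit, had 64.2, 79.5 and 62.0 in control, 58.1, 39.0 and 60.9 in bleomycin and 37.8, 63.1 and 42.8 in nitrate (-0.53 ± 0.23, adjusted p = 0.160). Without nitrate 2 all 4 subunits were called lower in nitrate against control (adjusted p = 0.0193 for Sdhc, 0.0336 for Sdhd, 0.0439 for Sdha and 0.0482 for Sdhb). The share of all tested genes called without nitrate 2 is not given here. Sdhc was also called with a minimum mean of 5 FPKM and under quantile normalization. With the muscle list as a covariate the estimates of Sdha and Sdhb in nitrate against control turned to 0.10 and 0.0061.

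Complex III had 7 of 8 nuclear estimates below 0 in bleomycin against control, with a median of -0.05, and complex V had 15 of 16, with a median of -0.10. None of these 24 genes was called. Uqcrfs1, the Rieske iron-sulfur protein, had 117, 146 and 126 FPKM in control, 122, 78.2 and 110.3 in bleomycin and 76.0, 110.3 and 83.7 in nitrate. Bleomycin 1 lay in the control range and all nitrate libraries below it (-0.54 ± 0.21, adjusted p = 0.123 in nitrate against control). Uqcrc2, a core subunit, had 60.4, 79.7 and 63.9 in control and 63.0, 45.9 and 51.6 in bleomycin (-0.34 ± 0.17, adjusted p = 0.238). Uqcr11, a small accessory subunit, was the member of complex III with the highest estimate (72.5, 88.9 and 74.7 in control and 100.5, 83.3 and 102 in bleomycin, 0.27 ± 0.20, adjusted p = 0.408), followed by Uqcr10 (-0.02 ± 0.20, adjusted p = 0.966). In ATP synthase, the catalytic head subunits Atp5a1 and Atp5b had the highest FPKM of the nuclear members on the deposited gene lengths (scaled to coding transcript length, Atp5b ranked 1, Uqcrc1 2, Cox4i1 3 and Atp5a1 4): Atp5a1 had 287, 363 and 314 in control, 317, 238 and 271 in bleomycin and 232, 321 and 226 in nitrate, and Atp5b had 263, 312 and 253 in control, 300.2, 222 and 256 in bleomycin and 209, 277 and 217 in nitrate. Both were lowest in bleomycin 2, nitrate 1 and nitrate 3, the 3 libraries lowest in muscle genes. The ends of the complex V estimates were Atp5g1, which makes a subunit of the rotor ring (-0.37 ± 0.26, adjusted p = 0.391), and Atp5k (0.16 ± 0.22, adjusted p = 0.661), with Atp5d of the central stalk next to it (-0.02 ± 0.15, adjusted p = 0.938). A second gene model named Atp5o and the testis isoforms Cox7b2 and Cox8c were listed at or near 0 in every library and were not tested.

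Nuclear subunits of complex IV had estimates on both sides of 0, 9 of 17 below, with a median of -0.0014 in bleomycin against control. Cox6b2, a testis-type isoform at low level here, had 1.24, 1.5 and 0.467 FPKM in control, 3.04, 1.67 and 5.07 in bleomycin and 2.21, 1.58 and 2.23 in nitrate, with every bleomycin library above every control (1.0 ± 0.31, adjusted p = 0.0868). It was called higher when bleomycin 2 was left out (adjusted p = 0.0441, with 0.0441 to 0.222 over all alternatives). Cox6a1, the ubiquitous form of subunit VIa, had 165, 172 and 165 in control, 199, 227 and 257 in bleomycin and 191, 166 and 269 in nitrate, all bleomycin libraries being higher (0.43 ± 0.19, adjusted p = 0.183). Cox4i1, the ubiquitous form of subunit IV, had 173, 204 and 177 in control and 185, 159.7 and 213 in bleomycin. It overlapped. Its hypoxia- and lung-associated partner Cox4i2 was low, at 1.91, 5.96 and 4.09 in control, 3.58, 5.64 and 3.89 in bleomycin and 3.32, 3.12 and 7.54 FPKM in nitrate. Ndufa4l2, an isoform known as a target of hypoxia signalling, had 95.3, 92.0 and 107 in control, 128, 48.0 and 123 in bleomycin and 42.9, 91.2 and 47.2 in nitrate, lowest in bleomycin 2, nitrate 1 and nitrate 3.

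The heart and muscle isoforms of complex IV varied widely within each treated group. Cox6a2, the muscle form of subunit VIa, had 179, 185 and 143 FPKM in control, 205, 52.5 and 131 in bleomycin and 41.5, 189 and 41.6 in nitrate. Its ratio to Cox6a1 was 1.08, 1.07 and 0.870 in control, 1.03, 0.231 and 0.511 in bleomycin and 0.217, 1.14 and 0.155 in nitrate. Bleomycin 1 and nitrate 2 lay at or above the lowest control and the other 4 treated libraries were lower (-0.58 ± 0.64, adjusted p = 0.603 in bleomycin and -1.27 ± 0.64, adjusted p = 0.209 in nitrate against control). Cox7a1, the muscle form of subunit VIIa, had 26.8, 28.1 and 31.4 in control, 20.5, 6.80 and 18.0 in bleomycin and 4.18, 26.5 and 11.2 in nitrate, and its ratio to Cox7a2 was 0.308, 0.312 and 0.316 in control, 0.221, 0.0757 and 0.167 in bleomycin and 0.0521, 0.270 and 0.112 in nitrate. The controls agreed closely and all 6 treated libraries lay below them (-1.01 ± 0.58, adjusted p = 0.302 in bleomycin and -1.30 ± 0.58, adjusted p = 0.164 in nitrate). Cox8b, the muscle form of subunit VIII, had a ratio to Cox8a of 0.460, 0.463 and 0.454 in control, 0.496, 0.167 and 0.257 in bleomycin and 0.129, 0.677 and 0.122 in nitrate, with nitrate 2 the highest of all libraries. The 3 lowest libraries of each ratio were the 3 lowest in the muscle list, and with that list as a covariate the estimate of Cox6a2 turned to 0.45 in both comparisons. Without nitrate 2, Cox6a2 (adjusted p = 0.0308) and Cox7a1 (0.0342) were called lower in nitrate against control. Cox7a1 and Cox8b are also expressed in brown fat. The 9 genes of the brown fat list, Cox7a1 among them, summed to 142, 156 and 162 FPKM in control, 83.1, 193 and 89.0 in bleomycin and 218, 265 and 158 in nitrate. Its defining gene Ucp1 was listed at 0 in 7 of the 9 libraries and at most at 0.105 FPKM, while Elovl3 and Cidea made up most of the sum. Cidea is also on the sebaceous gland list used here, so the sum is not particular to brown fat. In bleomycin against control Dio2 rose (1.51 ± 0.23, adjusted p = 0.00887) and Zic1 fell (-0.99 ± 0.16, adjusted p = 0.0121), and the part of brown fat cells in the isoform values was not tested.

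**Figure D5:**
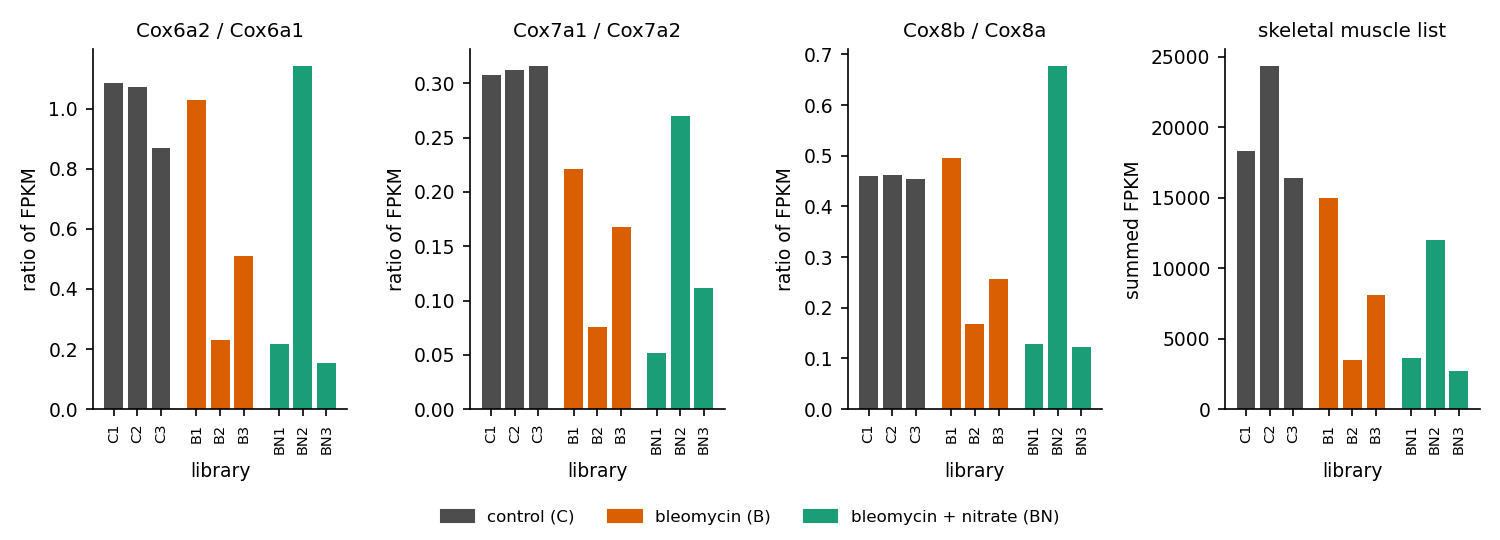
Ratio of FPKM of 3 muscle isoforms of complex IV to their ubiquitous partners, and the summed FPKM of 20 skeletal muscle genes, with 1 bar per library. Bleomycin 2, nitrate 1 and nitrate 3 are the lowest libraries in all 4 panels, and bleomycin 1 and nitrate 2 the highest treated ones.

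Promoter windows of 6 complex IV genes were read, and the 2 that held a motif searched for are shown so that the matches can be seen. RefSeq windows of 250 bases upstream of the start (GRCm38.p6) were matched by symbol for 78 of the 97 nuclear member symbols, giving 83 windows. They were searched on both strands for CGCATGCG, the core of the motif of NRF1, a regulator of many respiratory genes, for CCGGAAG, the core bound by ETS factors such as GABP, and for CAGCTG, an E-box bound by MyoD, no one of which holds another. CGCATGCG was in 9.64% of the members' windows and in 1.55% of all 32851 windows, CCGGAAG in 19.3% and 6.91%, and CAGCTG in 7.23% and 13%. Capitals mark the matches in Cox6a1 (chr5:115348959-115349208, minus strand), which held CGCATGCG and, on the other strand, CCGGAAG, and in Cox8b (chr7:140900447-140900696, minus strand), which held CAGCTG. Each is in gene sense, 5′ to 3′, ending at the base before the start.
Cox6a1: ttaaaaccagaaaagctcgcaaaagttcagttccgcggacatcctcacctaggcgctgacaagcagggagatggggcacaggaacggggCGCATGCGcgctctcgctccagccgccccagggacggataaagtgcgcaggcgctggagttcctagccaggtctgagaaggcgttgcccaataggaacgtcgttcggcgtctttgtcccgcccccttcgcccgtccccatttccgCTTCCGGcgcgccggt
Cox8b: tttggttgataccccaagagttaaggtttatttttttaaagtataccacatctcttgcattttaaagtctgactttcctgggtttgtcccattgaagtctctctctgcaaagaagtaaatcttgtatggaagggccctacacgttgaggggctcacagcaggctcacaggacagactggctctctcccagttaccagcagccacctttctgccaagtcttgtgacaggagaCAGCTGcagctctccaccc
The windows of the muscle isoform Cox7a1 and of the ubiquitous Cox7a2, Cox8a and Cox5b held none of the 3 motifs. A match of letters is a description and shows no binding.

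Nuclear members ranked the libraries in much the same way. Of the 95 tested nuclear and assembly members, 64 had their lowest value of all 9 libraries in nitrate 1 and 16 in bleomycin 2, while 46 had their highest in control 2 and 21 in bleomycin 3. Within the bleomycin group bleomycin 2 was lowest for 86 of the 95, and within the nitrate group nitrate 2 was highest for 74. Bleomycin 2, nitrate 1 and nitrate 3 were also the 3 libraries with the lowest sums of both muscle genes and nuclear subunits, and control 2 had the highest of both. The mitochondrial genes followed another order among nitrate libraries: nitrate 3 was lowest for 12 of the 13 and nitrate 2 highest for all 13.

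The class of assembly factors and associated proteins had a median of -0.27 in bleomycin against control over 14 tested members, and none was called. Its Ndufaf and Sdhaf members help build the complexes without staying in them, while Cox7a2l and Atp5s are associated proteins. Ndufaf3, a complex I factor, had 7.93, 8.91 and 8.40 FPKM in control and 6.69, 4.87 and 6.44 in bleomycin, with no overlap (-0.44 ± 0.14, adjusted p = 0.0992). Ndufaf8, of complex I, had the highest estimate of the class (14.1, 11.8 and 8.48 in control and 13.2, 14.0 and 19.0 in bleomycin, 0.41 ± 0.24, adjusted p = 0.308). The complex II factors ran from Sdhaf4 (-0.48 ± 0.22, adjusted p = 0.206) over Sdhaf2 (0.06 ± 0.10, adjusted p = 0.763) to Sdhaf3 (0.13 ± 0.16, adjusted p = 0.637), and Atp5s, which is associated with complex V, had 4.62, 4.32 and 5.16 in control and 4.15, 2.58 and 3.17 in bleomycin (-0.42 ± 0.17, adjusted p = 0.159). Ndufaf6, another complex I factor, had 6.25, 7.70 and 5.54 in control, 5.36, 3.74 and 3.90 in bleomycin and 4.06, 2.61 and 3.11 in nitrate. It fell in nitrate against control (-0.82 ± 0.18, adjusted p = 0.0338) and missed the threshold in bleomycin (-0.49 ± 0.18, adjusted p = 0.125), and the call in nitrate ended without control 1 (adjusted p = 0.0946), control 2 (0.127) or nitrate 3 (0.102). Cox7a2l, which joins complexes III and IV into supercomplexes, overlapped in all groups, with 131, 137 and 140.2 in control, 137, 114 and 169 in bleomycin and 137, 157 and 131 in nitrate.

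Skin given bleomycin and nitrate had mitochondrial transcript levels below those of control, in a range that overlapped bleomycin skin for all 13 genes. Against control, 10 members fell and none rose, beside 4.9% of all tested genes called lower and 3.63% called higher. They were 9 mitochondrial genes, the 7 above with mt-Co1 (-1.08 ± 0.25, adjusted p = 0.0362) and mt-Atp6 (-1.49 ± 0.36, adjusted p = 0.0422), and Ndufaf6. All 13 mitochondrial genes had nitrate libraries below every control, against 17.5% of all tested genes, with a median of -1.26. mt-Nd4l, which overlapped in bleomycin, had 22.8, 45.2 and 30.6 FPKM in nitrate (-1.57 ± 0.45, adjusted p = 0.0641). The nuclear subunits had a median of -0.27, 0 of 81 called by limma (15 with an unadjusted p under 0.05, and 0 by voom), and 22 with no overlap. After Sdhc, the nuclear subunit with the smallest p was Ndufs1 (-0.57 ± 0.16, adjusted p = 0.0593, and 0.0424 without nitrate 2). These calls did not hold without certain single libraries: 0 members were called without control 1 or without control 2. The mitochondrial medians were then -1.23 and -1.34, beside -1.26 with all libraries. There were 6 member calls without control 3 or nitrate 1, 4 without nitrate 3 and 32 without nitrate 2, the nitrate library richest in muscle genes. The share of all tested genes called in these fits is not given here, so these counts have no background beside them. With the muscle list as a covariate 0 were called by limma (12 with an unadjusted p under 0.05), and the medians were -1.02 for mitochondrial and 0.0061 for nuclear and assembly members.

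Nitrate and bleomycin skin were compared directly to ask whether nitrate changed these genes in bleomycin-treated skin. No member was called in either direction by limma or by voom (2 had an unadjusted p under 0.05 in limma and 1 in voom), nor was any of the 14645 genes, a background of 0%. The mitochondrial median was -0.07 and the nuclear subunit median -0.14, beside -0.0029 for all genes. Libraries did not overlap, with nitrate lower, for 3 members, against 11.8% of all tested genes. The members with the smallest p were Sdhaf2, an assembly factor of complex II (12.8, 13.4 and 11.7 in bleomycin and 10.5, 10.7 and 9.61 in nitrate, -0.27 ± 0.10, adjusted p = 0.215), and Sdhd, a membrane anchor (89.5, 69.1 and 75.8 in bleomycin and 49.8, 67.9 and 50.3 in nitrate, -0.48 ± 0.18, adjusted p = 0.224). Both comparisons with control share its 3 libraries, so their likeness is not independent evidence.

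Other RNAs of the mitochondrial genome did not all follow the mRNAs. The 12S rRNA mt-Rnr1 had 633, 437 and 536 FPKM in control and 557, 509 and 572 in bleomycin. It overlapped fully (0.04 ± 0.21, adjusted p = 0.922), and the 16S rRNA mt-Rnr2 had 1006, 673 and 900.3 in control and 507, 598 and 672 in bleomycin, with bleomycin lower and no overlap (-0.53 ± 0.26, adjusted p = 0.229). Both rRNAs were listed far below mt-Co1, which had 17376 to 19187 FPKM in control. Whether library preparation removed rRNA was not tested, so these values may not measure the rRNA level in the tissue. Of 16 tRNA genes tested, 6 fell in bleomycin and 5 in nitrate against control, with a median of -1.09 in bleomycin. Over all tested genes, 3.69% and 4.9% were called lower in these 2 comparisons. mt-Te had 608, 646 and 649 in control, 72.0, 148 and 118 in bleomycin and 157, 252 and 87.6 in nitrate (-2.54 ± 0.38, adjusted p = 0.00895), and mt-Tl1 had 249, 163 and 198 in control, 58.1, 74.7 and 59.0 in bleomycin and 81.4, 75.7 and 40.6 in nitrate (-1.64 ± 0.28, adjusted p = 0.0127). Reads of genes this short may come from longer RNAs that span them, which FPKM does not separate.

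Nuclear genes that serve mitochondrial DNA and RNA gave few calls. Of 15 tested genes of mitochondrial transcription and replication 0 were called by limma in any comparison (medians -0.02 in bleomycin and 0.02 in nitrate against control, all genes 0.01 and 0.02), and of 17 for mitochondrial RNA stability and processing also 0 (medians -0.08 and 0.0045). At an unadjusted p under 0.05 the first list had 1 gene in bleomycin and 2 in nitrate against control, the second 2 and 2, and voom called 0 in either. Tfb1m, which methylates the 12S rRNA, had 2.25, 2.69 and 2.34 FPKM in control and 1.75, 0.944 and 1.35 in bleomycin, with no overlap, and was not called. Among 12 regulators of mitochondrial biogenesis 1 rose in bleomycin: Ppard, a nuclear receptor of fatty acid use (5.99, 5.63 and 7.20 in control and 13.6, 12.2 and 9.95 in bleomycin, 0.82 ± 0.14, adjusted p = 0.0126, and 0.0577 without control 2). Over all tested genes, 4.74% were called higher in bleomycin against control. Ppargc1a, a coactivator of respiratory genes, had 1.80, 2.77 and 2.20 FPKM in control, 1.83, 0.753 and 0.843 in bleomycin and 0.901, 2.11 and 0.702 in nitrate. Within each treated group its libraries stood in the order of the muscle sums. Within control they did not, as control 3 lay above control 1 in Ppargc1a and below it in muscle genes.

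Of 35 tested assembly factors outside the symbol rule, 1 fell in bleomycin and 3 fell and 1 rose in nitrate against control. Over all tested genes, 3.69% were called lower in bleomycin, and 4.9% lower and 3.63% higher in nitrate. Uqcc1, a complex III factor, fell in both (7.27, 9.01 and 6.65 in control, 5.50, 4.04 and 4.98 in bleomycin, 4.26, 4.73 and 3.93 in nitrate; -0.56 ± 0.14, adjusted p = 0.0473 and -0.70 ± 0.14, adjusted p = 0.0296), Coa5 and Cox19, factors of complex IV, fell in nitrate (-0.53 ± 0.11, adjusted p = 0.0284 and -0.71 ± 0.17, adjusted p = 0.0422), and Acad9, a complex I factor, rose there (0.63 ± 0.14, adjusted p = 0.0338). Among 9 electron carriers and subunits named otherwise, Coq9, of ubiquinone synthesis, fell in bleomycin (32.6, 48.8 and 33.3 in control and 23.7, 15.7 and 17.5 in bleomycin, -0.97 ± 0.23, adjusted p = 0.0400) and Cycs, cytochrome c, in nitrate (23.7, 31.6 and 25.1 in control and 14.9, 19.6 and 18.8 in nitrate, -0.57 ± 0.14, adjusted p = 0.0483). The call of Coq9 ended without any one of the 6 libraries (adjusted p 0.0509 to 0.137), as did that of Uqcc1 in bleomycin (0.0653 to 0.161). Each of the 5 calls in nitrate ended without control 1 (0.0752 to 0.126), without control 2 (0.104 to 0.160), without nitrate 1 (0.0537 to 0.116) and without nitrate 3 (0.0822 to 0.108), and that of Cycs also without control 3 (0.0786).

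The 14 genes of the citric acid cycle gave 0 calls by limma in the 3 comparisons, with medians of -0.35 in bleomycin and -0.48 in nitrate against control, and 13 genes of the outer membrane and protein import gave 0, with medians of -0.10 and -0.15. At an unadjusted p under 0.05 there were 6 citric acid cycle genes in bleomycin and 9 in nitrate against control, and 1 and 5 of the other list, with 0 called by voom. Of 8 mitophagy genes Optn, a receptor for ubiquitin-marked mitochondria, fell in bleomycin (9.36, 10.5 and 8.95 in control and 5.62, 5.03 and 4.5 in bleomycin, -0.81 ± 0.14, adjusted p = 0.0142, and 0.0641 without control 2 and 0.0517 without bleomycin 3). In nitrate Optn fell (-0.58 ± 0.14, adjusted p = 0.0434) and Bnip3l, a mitophagy receptor of the outer membrane, rose (34.5, 36.5 and 42.2 in control and 55.0, 51.6 and 55.9 in nitrate, 0.51 ± 0.11, adjusted p = 0.0305). Both nitrate calls ended without control 1, control 2, nitrate 1 or nitrate 3 (adjusted p 0.0757 to 0.153), and that of Optn also without control 3 (0.0701). Over all tested genes, 3.69% were called lower in bleomycin, and 4.9% lower and 3.63% higher in nitrate, each against control.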

How the data were processed

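RNA from 9 mouse skin biopsies was sequenced, in 3 groups of 3 libraries taken from the labels. The authors deposited 1 table of FPKM per gene with gene symbols and lengths, aligned to mm10 per the submitters' processing notes; the aligner, the counting tool, its strand setting and its treatment of reads that match several places are not given in the sources used here. Deposited values above 0 and up to a limit of reads were whole multiples of 1 read for 100% of values (tolerance 0.01). This step gave the reads per library quoted in the report. Mitochondrial genes outside the copied region lay above that limit in every library, so their reads were scaled by the same step and rounded without this check.

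Genes with at least 1 FPKM in at least 3 libraries (14645) were tested with limma 3.58.1 in R 4.3.3 on log2(FPKM + 1), all 9 libraries in one fit without covariates, with trended and robust variances and Benjamini-Hochberg adjustment; calls have an adjusted p under 0.05. Log2 differences are on this scale and understate the change of low genes. The test was checked on simulated data. voom on the recovered reads, another pseudocount, filters, scalings, a replicate block, only the groups compared, and leaving out each library were tried; 4 alternatives (2 sets of libraries left out, the muscle covariate and summing with chromosome 1 copies) were chosen once the values had been seen.

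The members and gene lists were chosen with earlier results of these data known. Most genes were named by rule: the 13 mitochondrial genes, called members, the 2 highest and 2 lowest estimates per complex (all given for bleomycin against control; in the nitrate comparisons only some are given, a departure from the rule), complex IV isoforms, members nearest the threshold, and up to 4 genes per other list. Ndufv1, Ndufa2, Ndufb5, Ndufaf3, Sdha, Sdhb, Atp5a1, Atp5b, Ppargc1a and Tfb1m are shown for their role or level, chosen with their values known. All members were kept. Copies were matched to GENCODE M21 transcripts, and promoters are from RefSeq.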

Additional observations from a re-analysis of the deposited data

How the results depend on the processing

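The ratio of mitochondrial to nuclear subunit sums kept its direction in both comparisons with control under all alternatives run for it (log2 difference -1.11 to -0.89 in bleomycin and -1.09 to -0.67 in nitrate), and in nitrate against bleomycin it ran from -0.11 to 0.31. Fewer alternatives were run for this ratio than for the member calls. In bleomycin against control the 7 member calls became 2 under quantile normalization (1 shared with the 7), 0 without control 1 and bleomycin 1, and 5 to 6 when any one library was left out; all were mitochondrial, except that 1 nuclear member was called without bleomycin 2. In nitrate against control the 10 calls (9 mitochondrial, 1 nuclear-encoded) became 4 (4 and 0) without a filter, 5 (3 and 2) under quantile normalization (2 of the 3 mitochondrial calls among the 9), 1 (1 and 0) with only the groups compared, 0 (0 and 0) without control 1 and bleomycin 1, without the 3 libraries lowest in muscle genes or with the muscle covariate, and 0 to 32 (0 to 13 and 0 to 19) without any one library; voom gave 0 nuclear-encoded calls. Under quantile normalization the complex I and III mitochondrial medians were -0.41 and -0.13 in bleomycin and -0.62 and -0.091 in nitrate, and that of complex IV in bleomycin ran from -1.40 to -0.88 when any one library was left out. Estimates changed sign for mt-Co1 under quantile normalization (0.11 in bleomycin and 0 in nitrate), for mt-Rnr1 in bleomycin (-0.0054 under quantile normalization and -0.096 without control 2), for Sdha, Sdhb, Atp5c1 and Cox6a2 in nitrate with the muscle covariate (0.10, 0.0061, 0.078 and 0.45), for Cox6a2 in bleomycin with it (0.45), and for Atp5c1 and Cox6a2 in nitrate without the 3 libraries lowest in muscle genes (0.022 and 0.17); the cause was not tested. Of the uncalled bleomycin estimates near 0, Uqcr10 and Atp5d changed sign after rescaling without mitochondrial reads (0.043 and 0.037), by voom (0.0996 and 0.092), without the 3 low-muscle libraries (0.12 and 0.087) and with the muscle covariate (0.15 and 0.068), and Ndufa3 without control 1 and bleomycin 1 (-0.054); without any one library they ran from -0.11 to 0.12, -0.081 to 0.087 and -0.021 to 0.27, and Sdhaf2 from -0.00047 to 0.11; the cause was not tested. Voom moved the median of all genes to 0.13 in bleomycin and 0.18 in nitrate against control, and the mitochondrial medians were then -1.10 and -1.11. Same-numbered libraries deviated together (correlation above 0.1) in 5 of 9 pairs, so the numbers were not taken to pair the samples; with the number as a replicate block 7, 0 and 9 members were called in bleomycin against control, nitrate against bleomycin and nitrate against control. Counts of member calls in the alternatives are given without the share of all tested genes called in the same fit. With 3 libraries per group, small nuclear differences could not be separated from the spread between libraries.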

Other observations

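The FPKM of a gene depends on the gene length the authors used, and for many nuclear subunits it was longer than the annotated coding transcripts. Over the 81 tested nuclear subunits the deposited length was, at the median, 2.0 times the median length of the gene's coding transcripts in GENCODE M21 (range 0.986 to 12.4). Levels compared between nuclear members, and the size of the ratio of mitochondrial to nuclear sums, carry this factor, while differences between groups for a gene do not.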
